A study of Mus musculus with 7 samples.

Results

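The genes that sense stress and set the phosphorylation of the translation factor eIF2α were followed in mouse dermal fibroblasts before and after 3 h of thapsigargin. They comprise 10 genes, chosen by symbol and found once each among the 23583 gene entries of the RNA tables: the sensors and factors of the endoplasmic reticulum (ER) Ern1, Eif2ak3, Atf6, Atf6b and Xbp1, the eIF2α kinases outside the ER Eif2ak1, Eif2ak2 and Eif2ak4, and the regulatory subunits of the eIF2α phosphatase Ppp1r15a and Ppp1r15b. All cells were primary dermal fibroblasts of female FVB/N mice grown for 8 days in medium with serum, and they were either left untreated or given thapsigargin, which blocks the calcium pump of the ER, for 3 h before harvest. The 7 libraries held 1 RNA library of each state, 1 chromatin immunoprecipitation (ChIP) library of the bZIP factor CEBPB per state, 1 of its partner ATF4 after thapsigargin, and 2 bisulfite libraries made without treatment, which the authors pooled into 1 percentage per cytosine. The thapsigargin dose, the age of the mice and the number of mice behind each culture were each not given in the sources used here. Antibodies for ChIP were sc-150 for CEBPB and sc-200 for ATF4, and neither untreated ATF4 nor treated bisulfite samples were analysed here. With 1 library per state, no difference between states had a replicate check, and intervals below cover counting error only.

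The unfolded protein response starts in 3 arms at proteins of the ER membrane. IRE1, encoded by Ern1, cuts the Xbp1 message so that it is rejoined into a form that encodes an active factor; PERK, encoded by Eif2ak3, phosphorylates eIF2α, as GCN2, HRI and PKR do on other stresses; and ATF6 is cut in the Golgi to release a transcription factor. Phosphorylated eIF2α lowers general translation while ATF4 is translated more, and the protein phosphatase PP1, guided by GADD34 (Ppp1r15a) or CReP (Ppp1r15b), removes the phosphate. Because these proteins are switched by phosphorylation, cleavage and splicing, the RNA level of a sensor gives its message and not its activity.

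After thapsigargin, messages of the phosphatase subunit Ppp1r15a and of the transcription factor Xbp1 stood 6.16 and 4.63 times as high as before, and messages of the sensor Ern1, the ATF6 relative Atf6b and the kinase Eif2ak4 stood lower. Levels are FPKM (the fragments a gene collects per kb of its transcript, relative to library size), and a change is treated minus untreated log2(FPKM + 1), a scale that shrinks the changes of low genes. All 10 genes reached FPKM 1 in 1 or both libraries, as did 12207 entries in all. With a difference of 1 or more, 2 of the 10 were higher, beside 6.02% of all expressed entries, and 3 were lower, beside 28.2%. The median change of the 10 was −0.50, beside −0.52 for all expressed entries. In bulk samples, fewer cells of a type and less RNA per cell cannot be told apart.

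**Figure D1:**
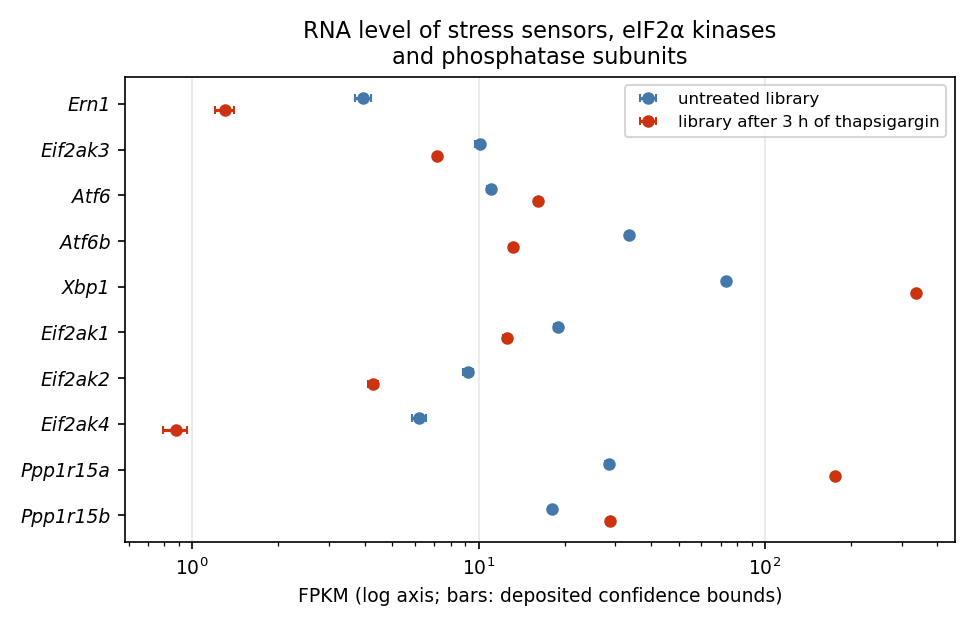
FPKM of each gene on a log axis in the untreated library (blue) and in the library after 3 h of thapsigargin (red), with the confidence bounds deposited by the authors as bars. Xbp1 and Ppp1r15a lie far to the right in the treated library, at 337 and 176, while Eif2ak4 and Ern1 lie far to the left, at 0.876 and 1.30.

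The treated library was lower the more exon junctions a gene has, and this bears on the decreases. Across 8745 genes that reached FPKM 5 in either library, Spearman's rho between the change and the number of junctions per kb of coding transcript was −0.419, as a description, since all points share the same libraries. A junction-adjusted change, the distance of a gene from the median gene in its bin of 50 bins of junction density, is therefore given beside each gene. By that measure 2 of the 10 genes were higher by 1 or more, beside 12.0% of entries, and 0 were lower, beside 10.1%, and their median was 0.18, beside 0.02 for all. Centred on the median of the 6551 entries that reached FPKM 5 in both libraries, −0.40, 3 of the 10 were higher, beside 11.0%, and 1 was lower, beside 15.8%. The number of decreases thus depended on the scaling, and the increases of Xbp1 and Ppp1r15a did not. What else goes with junction density was not tested.

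**Figure D2:**
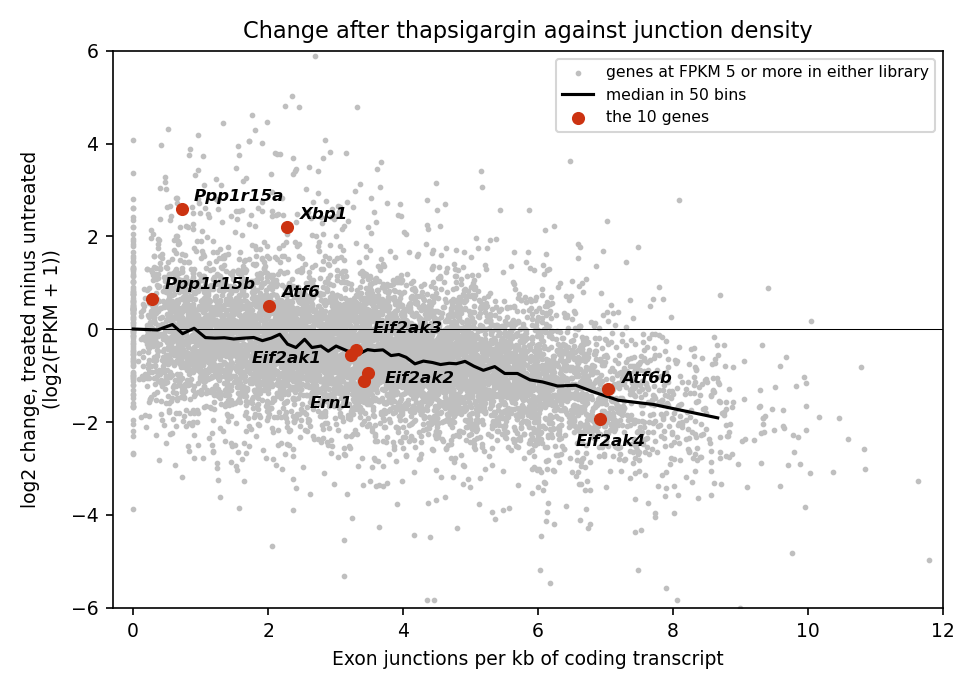
Change in log2(FPKM + 1), treated minus untreated, against exon junctions per kb of coding transcript for genes that reached FPKM 5 in either library (grey), with the median in 50 bins (black line) and the 10 genes in red; the few genes beyond the axis limits are not drawn. Xbp1 and Ppp1r15a lie far above the line, Atf6b and Eif2ak3 lie on the upper side of it although their changes are below 0, and Ern1, Eif2ak2 and Eif2ak4 lie under it.

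The markers went with the label of fibroblasts, with other cells present. Of 10 fibroblast markers, all were at FPKM 1 or more untreated, led by Col1a1 at 6473, and all 5 endothelial markers were under 1 in both libraries. The macrophage marker Lyz2, which encodes lysozyme and has a close paralogue, stood at 880 untreated and 951 treated. By the sum of both libraries, the most abundant markers of the other lists were Krt17 (7.17 and 0.330), Kdr (0.847 and 0.710), Sox10 (23.4 and 4.31), Fabp4 (12.8 and 1.49) and Myog (13.8 and 11.9). From the untreated to the treated library, the summed FPKM of the lists went from 14615 to 2890 for fibroblasts, where 8 of 10 were lower by 1 or more, from 21.1 to 1.49 for keratinocytes (4 of 5 lower), from 49.99 to 5.97 for melanocytes and Schwann cells (4 of 4 expressed lower), from 1020 to 1184 for macrophages and other leukocytes (0 of 6 lower and 1 higher), from 15.2 to 6.26 for adipocytes (1 of 2 expressed lower), from 57.3 to 26.8 for skeletal muscle (3 of 5 lower) and from 2.59 to 1.02 for endothelium, and no marker was at 0. After junction adjustment 4 of 10 fibroblast, 4 of 5 keratinocyte, 3 of 4 melanocyte and Schwann cell, 1 of 2 adipocyte and 0 of 5 muscle markers were lower, and 2 of 6 leukocyte markers and 1 of 2 adipocyte markers were higher. Over all expressed entries, 28.2% were lower and 6.02% higher, or 10.1% and 12.0% after junction adjustment. The part of these marker shifts in the results below was not tested. The bounds of the values implied 53915048 fragments in genes for the untreated and 78944294 for the treated library.

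Ern1 encodes IRE1α, a kinase and ribonuclease of the ER membrane, and lies at chr11:106258934-106349110 (mm9, as all positions of loci and peaks, minus strand). It had the lowest level of the 10 genes in untreated cells, FPKM 3.96 with deposited bounds of 3.72 to 4.21, and stood at 1.30 (1.20 to 1.40) after thapsigargin. The bounds did not overlap, and the ratio of untreated over treated was 3.05 (95% interval 2.77 to 3.35). The change was −1.11, or −0.67 after junction adjustment, so its size passed 1 only on the authors' scaling. The Xbp1 message, which IRE1 cuts, went the other way, and the level of Xbp1 over that of Ern1 was 18.4 (17.2 to 19.6) untreated and 259 (241 to 279) treated.

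Xbp1 encodes the bZIP factor that IRE1 brings into its active form, and lies at chr11:5420970-5425875 (plus strand). Its message stood at FPKM 72.9 (71.3 to 74.5) untreated, the highest of the 10 genes, and at 337 (335 to 340) treated, again the highest. The ratio of treated over untreated was 4.63 (4.52 to 4.73), and the change of 2.19 lay at percentile 98.6 of all expressed entries, with 2.51 after junction adjustment. The value per gene does not separate the unspliced from the spliced message.

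Eif2ak3 encodes PERK, the eIF2α kinase of the ER membrane, and lies at chr6:70794521-70855234 (plus strand). It stood at FPKM 10.1 (9.71 to 10.4) untreated and 7.18 (6.96 to 7.39) treated, an untreated-over-treated ratio of 1.40 (1.34 to 1.47). Its change of −0.44 was smaller in size than the difference of 1 used here, close to that of the median gene, and became 0.12 after junction adjustment, so its sign depended on the scaling.

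The paralogues Atf6 and Atf6b differed in direction on the authors' scaling. Atf6 (chr1:172634588-172797902, minus strand), which encodes the sensor cut in the Golgi, stood at FPKM 11.0 (10.7 to 11.3) untreated and 16.1 (15.9 to 16.3) treated, a ratio of 1.46 (1.42 to 1.51). Atf6b (chr17:34784125-34792017, plus strand), which encodes a relative cut in the same way, stood at 33.6 (32.7 to 34.5) untreated and 13.2 (12.8 to 13.6) treated, an untreated-over-treated ratio of 2.54 (2.44 to 2.64). On the authors' scaling, the level of Atf6b over that of Atf6 was 3.05 (2.94 to 3.17) untreated and 0.822 (0.796 to 0.850) treated. The order of the pair turned on that scaling and was not examined after junction adjustment. The changes were 0.51 for Atf6 and −1.28 for Atf6b. Atf6b has 7.04 junctions per kb and Atf6 has 2.01, and after junction adjustment the changes were 0.25 for Atf6b and 0.69 for Atf6, so the decrease of Atf6b was no larger than that of the median gene of like junction density.

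Of the kinases outside the ER, Eif2ak1 encodes HRI, which responds to heme shortage and mitochondrial stress, and lies at chr5:144578661-144663586 (plus strand). It had the highest level of the 4 eIF2α kinases in both libraries, FPKM 19.0 (18.3 to 19.6) untreated and 12.6 (12.2 to 12.9) treated, an untreated-over-treated ratio of 1.51 (1.44 to 1.58). Its change was −0.56, or −0.05 after junction adjustment. Exons of Aimp2 and Ankrd61 overlap 11.6% of its exonic bases, and reads of overlapping genes cannot be told apart without strand.

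Eif2ak2 encodes PKR, which binds double-stranded RNA and is induced by interferon, and lies at chr17:79251890-79281912 (minus strand). It stood at FPKM 9.17 (8.81 to 9.53) untreated and 4.29 (4.12 to 4.46) treated, an untreated-over-treated ratio of 2.14 (2.02 to 2.26). Its change was −0.94, or −0.51 after junction adjustment, and thus short of the difference of 1, which it passed at −1.08 with a pseudocount of 0.1 in place of 1. Other annotated genes overlap 4.32% of its exonic bases, and 4.71% of its 85 transcript windows have a near-identical copy elsewhere in the genome.

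Eif2ak4 encodes GCN2, which senses uncharged tRNA, and lies at chr2:118214353-118300970 (plus strand). It stood at FPKM 6.20 (5.86 to 6.54) untreated and 0.876 (0.791 to 0.961) treated, the lowest of the 10 genes, from about 424 fragments. The ratio of untreated over treated was 7.08 (6.34 to 7.90) and the change of −1.94 lay at percentile 6.71 of expressed entries. With 6.92 junctions per kb the gene sits among entries with a median change of −1.34, and its junction-adjusted change was −0.60.

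The make-up of the kinase messages shifted with these values. The summed FPKM of the 4 kinase genes was 44.4 untreated and 24.9 treated. Of that sum, Eif2ak1 made up 42.7% untreated and 50.5% treated, Eif2ak3 22.7% and 28.8%, Eif2ak2 20.6% and 17.2%, and Eif2ak4 14.0% and 3.51%. The level of Eif2ak3 over that of Eif2ak4 was 1.63 (1.52 to 1.74) untreated and 8.20 (7.42 to 9.06) treated. These shares and ratios are on the authors' scaling. The changes of Eif2ak3 and Eif2ak4 were −0.44 and −1.94 there and 0.12 and −0.60 after junction adjustment, so the gap between them was smaller by that measure.

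The phosphatase subunits were both at higher levels after thapsigargin, by different amounts. Ppp1r15a (chr7:52778288-52781638, minus strand) encodes GADD34, the subunit made on stress, and stood at FPKM 28.6 (27.7 to 29.4) untreated and 176 (174 to 177) treated. The ratio of 6.16 (5.97 to 6.36) was the largest increase of the 10 genes, and its change of 2.58 lay at percentile 99.1 of expressed entries, with 2.68 after junction adjustment. Ppp1r15b (chr1:135027743-135036377, plus strand) encodes CReP, the subunit present without stress, and stood at 18.0 (17.6 to 18.4) untreated and 28.7 (28.3 to 29.1) treated, a ratio of 1.59 (1.55 to 1.64). Its change was 0.64, or 0.66 after junction adjustment, and 1.04 after centring. The stress subunit was already the more abundant message untreated, and the level of Ppp1r15a over that of Ppp1r15b was 1.59 (1.53 to 1.65) untreated and 6.14 (6.04 to 6.23) treated.

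Ordered by level, the untreated library ran Xbp1, Atf6b, Ppp1r15a, Eif2ak1, Ppp1r15b, Atf6, Eif2ak3, Eif2ak2, Eif2ak4 and Ern1. The treated library ran Xbp1, Ppp1r15a, Ppp1r15b, Atf6, Atf6b, Eif2ak1, Eif2ak3, Eif2ak2, Ern1 and Eif2ak4. Among neighbours in these orders, the deposited bounds overlapped for Eif2ak1 and Ppp1r15b untreated and for Atf6b and Eif2ak1 treated, and for no other pair.

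The substrate of the kinases and its exchange factor were described from 8 genes of eIF2 and eIF2B subunits. Over all expressed entries, 6.02% were higher and 28.2% lower by 1 or more (median −0.52), or 12.0% and 10.1% after junction adjustment (median 0.02). These shares stand beside the counts of the following lists too. Of the 8 genes, none was higher by 1 or more and 3 were lower, with a median of −0.15. After junction adjustment 1 was higher and 1 lower, with a median of 0.51. The largest decrease, Eif2s3x (eIF2γ) at FPKM 37.3 and 5.48, is uncertain, because 92.4% of its transcript windows have a near-identical copy elsewhere in the genome. Eif2b4, which encodes a subunit of the exchange factor, stood at 15.8 and 4.08, a change of −1.73, or −0.50 after junction adjustment. Of the 3 catalytic subunits of PP1 that the phosphatase subunits guide, 2 were lower and 0 higher, with a median of −1.26, and after junction adjustment 1 was lower. Ppp1ca stood at FPKM 262 and 109 (change −1.26, adjusted −0.53), and Ppp1cc at 44.8 and 5.67 (−2.78), with copies of 95.9% of its windows, so its value is uncertain.

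Of 7 partners of the kinases outside the ER, 1 was lower by 1 or more and 0 higher, with a median of −0.57, and 0 passed in either direction after junction adjustment (median 0.22). The gene that passed was Gcn1l1, which encodes the ribosome-bound activator of GCN2, at FPKM 15.2 and 3.01 (change −2.01, adjusted −0.81, copies of 13.5% of its windows). Prkra, which encodes an activator of PKR, stood at 25.4 and 12.4 (−0.98, adjusted −0.29). Interferon response genes, listed because Eif2ak2 is one of their kind, stood mostly higher: 4 of 8 passed the difference of 1 upwards and 0 downwards, with a median of 1.11, or 6 higher after junction adjustment. Isg15, a ubiquitin-like protein, stood at 22.6 and 116 (2.31), and Ifit1, which binds foreign RNA, at 4.85 and 21.2 (1.93).

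Luminal chaperones and oxidoreductases that act on the sensors had 4 of 7 members higher and 1 lower, with a median of 1.07, and 4 higher and 0 lower after junction adjustment. Hspa5, which encodes BiP, the chaperone that holds the sensors inactive, stood at FPKM 354 and 4978 (change 3.81), and Dnajb9, which encodes the co-chaperone ERdj4, at 16.8 and 108 (2.62, copies of 33.3% of its windows). Of 10 partners and effectors of IRE1, 8 were expressed, and 1 was higher and 1 lower, with a median of 0.73; after junction adjustment 4 were higher and 0 lower. Syvn1, the ubiquitin ligase HRD1, stood at 23.0 and 112 (2.23), and D10Wsu52e, which encodes the ligase that joins the cut Xbp1 message, at 71.1 and 31.5 (−1.15, adjusted −0.20). Of 7 proteases and relatives of ATF6, 5 were expressed, and 2 were lower and 0 higher, with a median of −0.96, or 1 lower after junction adjustment. That gene was Mbtps1, the site-1 protease that cuts ATF6, at 63.3 and 13.9 (−2.11, adjusted −1.51), and Creb3, a relative of ATF6, stood at 56.6 and 25.3 (−1.13, adjusted −0.33).

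Genes downstream of the 3 arms were counted in the same way. All 4 luminal genes counted higher above are in these lists too, among them Hspa5 as a target of ATF6 and Dnajb9 as one of spliced XBP1. The counts of these lists are therefore not separate. Of 10 textbook targets of ATF6, 9 were higher and 0 lower, with a median of 1.88, led by Sdf2l1, a chaperone partner in the ER, at FPKM 16.8 and 346 (4.29). Of 10 textbook targets of spliced XBP1, 3 were higher and 1 lower, with a median of 0.54, and 5 were higher and 0 lower after junction adjustment. The gene lower was Sec24d, a coat protein of ER export, at 64.5 and 26.9 (−1.23, adjusted −0.28). Of 12 textbook targets of ATF4 and CHOP, 8 were higher and 0 lower, with a median of 1.41, led by the glutathione-degrading enzyme Chac1 (change 3.25) and by Ddit3 (3.13), which encodes CHOP. The genes of both factors, ATF4 and CHOP, are themselves in this list and among those counted higher. Of 7 reported substrates of IRE1-dependent decay, 5 were lower and 0 higher, with a median of −1.42. After junction adjustment 1 of them was lower, with a median of −0.47. That gene was the scavenger receptor Scara3 at 16.3 and 2.03 (−2.51, adjusted −2.30), while Hgsnat, a lysosomal enzyme, stood at 18.8 and 4.23 (−1.92, adjusted −0.70).

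The second question was whether CEBPB or ATF4 was listed at these genes. Peaks are those called by the authors, and their scores rank peaks within a list only. CEBPB peaks had a median width of 464 bp and a median score of 83.65 in the untreated list, and 172 bp and 5.9 in the treated list. A CEBPB peak listed for a single state is therefore not shown to be a difference in binding. Within 10 kb of a locus, 7 of the 10 genes had an ATF4 peak, beside 61.5% of all expressed entries, 6 had a CEBPB peak of treated cells, beside 22.5%, and 5 had a CEBPB peak of untreated cells, beside 24.2%. Within 1 kb of the start, ATF4 peaks were listed at 6 genes (background 47.7%), CEBPB peaks of treated cells at 3 (3.89%) and CEBPB peaks of untreated cells at 2 (4.88%). The 10 genes differ in length, and a longer locus takes in more sequence. Ern1, Xbp1 and Ppp1r15b had peaks of all 3 lists, Eif2ak2 had none, and the 24 peaks in all comprised 9 of ATF4, 9 of CEBPB in treated and 6 of CEBPB in untreated cells.

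**Figure D3:**
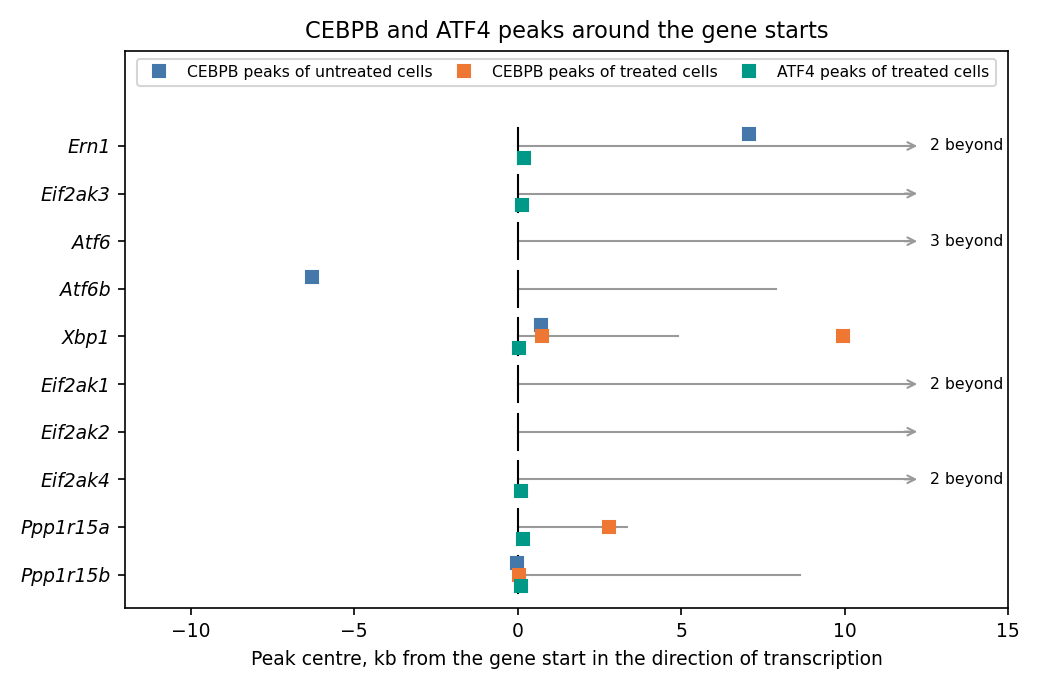
Centres of the peaks near each gene in kb from its start, with positive values in the direction of transcription, for CEBPB in untreated cells (blue), CEBPB in treated cells (orange) and ATF4 in treated cells (green). Grey lines are the loci, arrows mark loci that run past 12 kb, the text at the right counts peaks farther away, and 1 peak is not drawn. The green squares gather at the starts, and at the start of Ppp1r15b all 3 colours lie together.

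Ppp1r15b carried the highest-ranked peaks of the set. At its start an ATF4 peak, chr1:135027598-135028106, ranked 41 of 10109 by score, and a CEBPB peak of treated cells, chr1:135027630-135027912, ranked 243 of 7861. A CEBPB peak of untreated cells, chr1:135027513-135027916, overlapped both but ranked 6950 of 7317. The overlap of the lists falls on a C/EBP-ATF composite motif, TGATGNAA, here TGATGCAA at chr1:135027683-135027690, 57 bp upstream of the start. The sequence from the ATF4 peak's edge up to the annotated transcripts (chr1:135027598-135027719, mm9, plus strand) is shown because all 3 peaks share its right-hand portion, with the motif in capitals.

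Ppp1r15b upstream: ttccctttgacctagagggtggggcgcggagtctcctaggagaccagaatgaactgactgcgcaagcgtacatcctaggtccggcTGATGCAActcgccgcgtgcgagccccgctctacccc

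A TGATGNAA on either strand occurred in 13.1% of the central 200-bp windows of CEBPB peaks of treated cells, 11.1% of those of untreated cells and 1.19% of those of ATF4. The Ppp1r15b motif lies within the central window of both CEBPB peaks and inside the ATF4 peak but outside its central window. A match of letters is a description and does not show a bound site. Sequences are of the reference genome, while the mice were FVB/N.

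Xbp1 had its peaks at separate places. An ATF4 peak at chr11:5420854-5421186 covered the start and ranked 953 of 10109. In the first intron, CEBPB peaks of untreated cells (chr11:5421489-5421881, rank 2280 of 7317) and of treated cells (chr11:5421630-5421784, rank 5705 of 7861) overlapped each other and not the ATF4 peak. A further CEBPB peak of treated cells, chr11:5430827-5430993, lay 4952 bp past the end of the locus. The intronic peak of treated cells is shown because both CEBPB peaks hold the CpG form of the composite motif, TGACGNAA, here TGACGCAA in capitals (chr11:5421658-5421665), with 2 CpG cytosines listed at 0% methylation.

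Xbp1 first intron: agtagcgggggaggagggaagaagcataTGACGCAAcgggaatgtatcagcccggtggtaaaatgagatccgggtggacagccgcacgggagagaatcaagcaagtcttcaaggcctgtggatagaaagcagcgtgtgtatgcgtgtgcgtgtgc

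TGACGNAA occurred in 2.67% of the central windows of CEBPB peaks of untreated cells and in 2.52% of those of treated cells. The ATF4 peak at the Xbp1 start held an ER stress element (CCAAT and CCACG set 9 bases apart), the motif that ATF6 binds together with NF-Y, at chr11:5420909-5420927. It lies at −61 to −43 bp from the start given in the RNA table and inside the first exon of a longer annotated transcript. It is shown with the element in capitals (chr11:5420904-5420932, plus strand).

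Xbp1 ER stress element: accggCCAATCGCGGACGGCCACGaccct

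An ER stress element occurred in 0.119% of 32851 RefSeq promoters of 300 bp, but the RefSeq promoter of Xbp1 held none. The Xbp1 element was not wholly inside the central 200-bp window of its ATF4 peak. Of such windows of ATF4 peaks, 0.0297% held an element, and no share was taken over whole peaks. The CpG cytosines of the Xbp1 element were listed at a mean of 0%.

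Ppp1r15a had an ATF4 peak at chr7:52781355-52781584, 54 to 283 bp inside the gene and centred in an untranslated exon, which ranked 744 of 10109 and held a TTGCCAAA (chr7:52781409-52781416). A CEBPB peak of treated cells lay in an intron, 2806 bp from the start by its centre (chr7:52778743-52778922, rank 2206 of 7861). No CEBPB peak of untreated cells was listed within 10 kb. The RefSeq promoter is shown because it holds a full cAMP response element, TGACGTCA, in capitals, at −12 to −5 bp from the start. These are the 250 bases upstream of the start (chr7:45526269-45526518 of GRCm38.p6, minus strand, a build other than that of the peaks).

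Ppp1r15a promoter: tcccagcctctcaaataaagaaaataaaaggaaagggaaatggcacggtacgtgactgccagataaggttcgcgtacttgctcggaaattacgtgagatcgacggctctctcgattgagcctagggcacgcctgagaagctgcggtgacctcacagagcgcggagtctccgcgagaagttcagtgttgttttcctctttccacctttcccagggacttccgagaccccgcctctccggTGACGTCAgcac

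TGACGTCA occurred in 1.79% of RefSeq promoters, and the ATF4 peak of Ppp1r15a held none. Of the 9 RefSeq promoters matched to 8 of the 10 genes, the others held no motif searched except for a TTGCAAAA, at −178 to −171 bp from the start, in that of Xbp1. The motif TTGCNNAA, the general C/EBP site, occurred in 10.8% of RefSeq promoters.

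Atf6 had CEBPB peaks and no ATF4 peak within 10 kb. Within an intron, 21940 bp from the start, peaks of treated cells (chr1:172775874-172776051, rank 1561 of 7861) and untreated cells (chr1:172775716-172776248, rank 1399 of 7317) overlapped. A further peak of untreated cells lay 955 bp past the other end (chr1:172633054-172633633, rank 2764 of 7317). The intronic peak of treated cells is shown on the strand of the gene because it was listed in both states. Capitals mark TTGCNNAA, which reads TTGTGCAA on this strand.

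Atf6 intron: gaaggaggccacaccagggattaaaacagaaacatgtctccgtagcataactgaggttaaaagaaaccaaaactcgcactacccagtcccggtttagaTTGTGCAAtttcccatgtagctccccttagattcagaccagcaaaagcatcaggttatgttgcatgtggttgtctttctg

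TTGCNNAA occurred in 60.2% of the central windows of CEBPB peaks of untreated cells, 20.7% of those of treated cells and 2.12% of those of ATF4. The intronic match contains no CpG.

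Ern1 had an ATF4 peak at its start (chr11:106348617-106349205, rank 1099 of 10109) and CEBPB peaks in its introns, listed at other places in treated than in untreated cells. The CEBPB peak of untreated cells lay 7078 bp from the start (chr11:106341776-106342289, rank 2133 of 7317), and those of treated cells lay at 34808 bp (chr11:106314224-106314380, rank 1926 of 7861) and at 48724 bp (chr11:106300303-106300470, rank 7005). The last is shown on the strand of the gene because it holds the same TGATGCAA as Ppp1r15b, here read from the other strand as TTGCATCA in capitals.

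Ern1 intron: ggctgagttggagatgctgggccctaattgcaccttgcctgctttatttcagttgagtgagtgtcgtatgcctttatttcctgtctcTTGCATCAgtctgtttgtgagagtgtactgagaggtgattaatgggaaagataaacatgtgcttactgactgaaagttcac

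The remaining peaks lay near Eif2ak3, Eif2ak4, Eif2ak1 and Atf6b. Eif2ak3 had 1 peak, of ATF4, at its start (chr6:70794506-70794827, rank 7398 of 10109). Eif2ak4 had an ATF4 peak at its start (chr2:118214352-118214549, rank 7884), a higher-ranked one in a coding exon (chr2:118256665-118256881, rank 2081) and one 31 bp from the start of Srp14 (chr2:118305201-118305480, rank 4851). The peaks within 10 kb of Eif2ak1, of ATF4 (chr5:144670307-144670576, rank 791) and of CEBPB in treated cells (chr5:144670407-144670589, rank 3031 of 7861), overlapped each other at the start of Aimp2, which encodes a scaffold of the tRNA synthetase complex, 6721 and 6821 bp past the Eif2ak1 locus. Aimp2 stood at FPKM 30.8 and 50.1. The peak near Atf6b, of CEBPB in untreated cells, lay 6072 bp before its start (chr17:34777605-34778053, rank 6243 of 7317) and nearest to the start of Fkbpl, which stood at 4.80 and 10.1. It held a TGACGAAA (chr17:34777909-34777916) with 2 CpG cytosines at a mean of 13%. None of the peaks of the 10 genes held CGATGCAA, which has a CpG at its first bases and occurred in 0.217% of central windows of CEBPB peaks of treated cells.

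Genes with an ATF4 peak at the start stood on both sides of 0. The changes of the 6 genes with one ran from −1.94 (Eif2ak4) to 2.58 (Ppp1r15a), and those of the other 4 from −1.28 to 0.51.

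The third question was the methylation of CpGs at these genes in untreated cells. Within 1 kb, all 10 starts were low and all 10 other ends were not. Within 2 kb of the start, 7 of the 10 were under 20%, and no share of expressed entries was taken at that width. The mean percent of CpG cytosines within 1 kb of the start was under 20% at 10 of 10 genes, beside 83.1% of expressed entries, and that within 1 kb of the other end was under 20% at 0 of 10, beside 3.29%. The file holds no coverage, which leaves the depth behind a percentage unknown, and no interval is given. Starts ran from 0.290% at Xbp1, 0.314% at Atf6 and 0.611% at Eif2ak3, through 2.25% at Ern1, 2.62% at Eif2ak1, 5.82% at Ppp1r15b, 7.45% at Eif2ak4 and 7.80% at Ppp1r15a, to 12.6% at Eif2ak2 and 19.2% at Atf6b. The median over expressed entries was 5.49%. Within 1 kb, other ends ran from 43.9% at Ppp1r15a and 55.1% at Atf6b to 87.8% at Eif2ak1, with a median of 79.8% over expressed entries. Within 500 bp of the other end, Ppp1r15a stood at 75.7% and Atf6b at 57.3%. The wider window of Ppp1r15a reaches a low stretch past its locus, with 250-bp bins at 2.32% and 1.34%.

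The low stretch around the start differed in length among the genes. Taking bins of 250 bp under 20%, it was 1000 bp long at Atf6b and at Eif2ak2, between 1500 bp (Eif2ak4) and 2250 bp (Eif2ak3 and Atf6) at 7 others, and longest at Ppp1r15b. There it ran without a gap for 3000 bp, from 500 bp before to 2500 bp after the start, and for 4000 bp where bins without a CpG value are bridged. Within 500 bp of the start, the means of Atf6b and Eif2ak2 were 4.40% and 0.794%. Over the whole locus, methylation ran from 17.6% at Ppp1r15b, 21.9% at Xbp1 and 32.7% at Ppp1r15a to 77.6% at Eif2ak2.

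**Figure D4:**
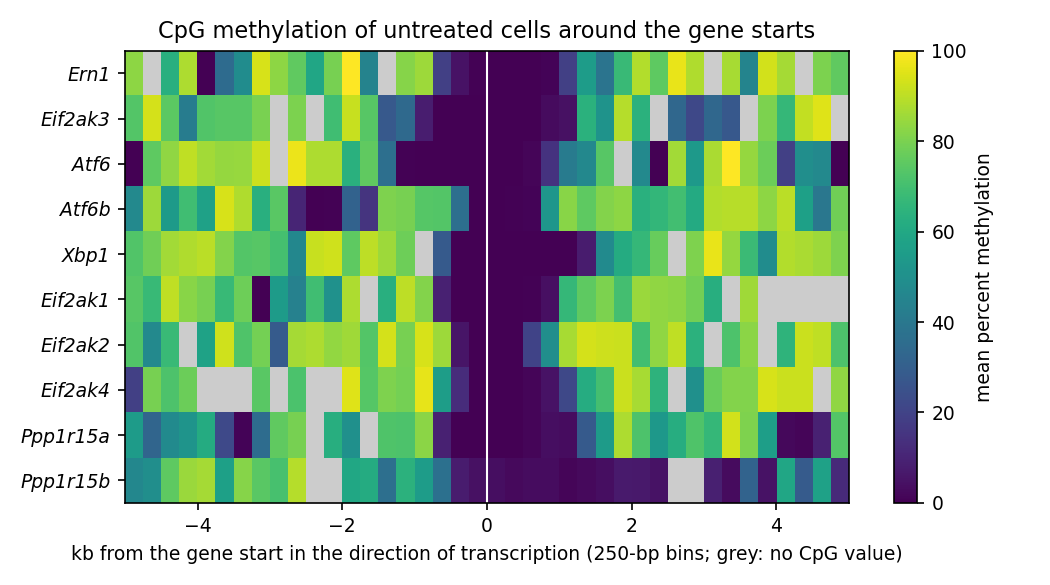
Mean percent methylation of CpG cytosines of untreated cells in 250-bp bins from 5 kb before to 5 kb after each gene start, in the direction of transcription, on a colour scale from 0 to 100%. Grey bins hold no CpG value. A dark stretch spans each start, shortest at Atf6b and Eif2ak2 and longest at Ppp1r15b.

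Peaks at the starts lay in this sequence, which was unmethylated in untreated cells. The ATF4 peaks at the starts of Ern1, Eif2ak3, Xbp1, Eif2ak4 and Ppp1r15a held means of 0 to 0.109%, and those of all 3 lists at Ppp1r15b 3.15% to 3.66%, with no cytosine above 11%. The median over the peaks of a list that hold a CpG value was 0.172% for ATF4, 39.0% for CEBPB in untreated and 60.3% for CEBPB in treated cells. Such peaks made up 94.4%, 96.3% and 81.3% of the lists, in that order, and the CEBPB lists differ in peak width. In the first intron of Xbp1, the CEBPB peak of untreated cells stood at 0.0213% and that of treated cells at 0%. Outside the loci, CEBPB peaks stood at 0.194% at the start of Aimp2, 35.2% before Atf6b, 53.1% past Atf6 and 66.8% past Xbp1. Among the CEBPB peaks away from starts, the intron of Atf6 stood at 15.4% in the peak of untreated and 17.7% in that of treated cells, the intron of Ppp1r15a at 70.5% over 4 cytosines, and the introns of Ern1 at 18.4% over 8 cytosines in the peak of untreated cells and at 62.5% and 81.0%, over 2 cytosines each, in those of treated cells.

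The coding exon peak of Eif2ak4 was the exception among the ATF4 peaks. Its 26 CpG cytosines stood at a mean of 87.6%, from 72% to 98%, in untreated cells, while the ATF4 peak is of treated cells. Its sequence (chr2:118256665-118256881, mm9, plus strand) is shown because it is the methylated ATF4 peak of the set, with each of its 13 CpGs in capitals.

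Eif2ak4 exon: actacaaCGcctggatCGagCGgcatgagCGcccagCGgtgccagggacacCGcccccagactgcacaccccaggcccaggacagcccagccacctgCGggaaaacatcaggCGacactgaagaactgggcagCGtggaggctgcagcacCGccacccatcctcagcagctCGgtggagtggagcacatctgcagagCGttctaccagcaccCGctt

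None of the motifs searched occurred in it. Of the cytosines listed near the 10 genes, 16242 of 16648 are a C or G in the reference genome, which differs from the strain of the mice.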

How the data were processed

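RNA, ChIP and bisulfite libraries of dermal fibroblasts were compared by state as described above. The submitters' processing notes name Bowtie and CASAVA 1.8.2 for RNA, BWA, SAMtools and CASAVA 1.7 for ChIP, Novoalign and CASAVA 1.8 for bisulfite reads, and mm9 throughout. The program behind the expression values, the ChIP control and the peak threshold were not given in the sources used here; CEBPB peak names in the deposited files refer to MACS.

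Gene values were deposited by the authors as FPKM with bounds and a status, which was OK for all 10 genes. Peaks were deposited by the authors with a position and a score per peak, called per library. Methylation was deposited by the authors as a percent per CpG cytosine, pooled over both bisulfite libraries; 83035 entries marked heterozygous were left out of 39547384. Locus starts in the RNA tables counted from 0 and were converted.

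Fragments were read from the bounds, taken as 2 standard errors of a count on either side. They were whole within 0.05 for 73.7% of 4219 low entries untreated and 79.3% of 4363 treated. Ratio intervals are 95% intervals from these fragments. The RNA comparison has no p-value. Junctions and positions came from GENCODE vM1 on NCBIM37, matched for 92.77% of 23444 entries. Peaks counted within 10 kb of a locus. Motifs were TTGCNNAA, TGATGNAA, TGACGNAA, CGATGCAA, TGACGTCA, TGACGTGG, the ER stress element and the ER stress element II (ATTGG and CCACG set 1 base apart) on both strands, in whole peaks and promoters; the 8-base motifs exclude each other by their letters. Promoters were RefSeq's (GRCm38.p6, 250 bases before to 50 after the start); Ppp1r15b and Atf6 had no entry. Copies were 100-bp transcript windows, every 50 bp, with at most 3 mismatches elsewhere (minimap2 2.31-r1302). Scripts used Python 3.11.15, pandas 2.3.3, pysam 0.24.0 and scipy 1.17.1.

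The 10 genes and the peaks within 10 kb are named, except 1 peak that is counted but not reported here. Of each pathway list the 2 expressed genes with the largest change are named, and of each cell type list the most abundant. Members and lists were chosen with earlier results of these data known.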

Additional observations from a re-analysis of the deposited data

How the results depend on the processing

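The count of higher genes was 2 and became 4 with a difference of 0.5 or more. The count of lower genes was 3 and became 5 with that difference, 1 with a pseudocount of 5, 1 after centring on entries that reached FPKM 5 in both libraries, and 0 after junction adjustment. Subtracting a median below 0 raises every change, and a larger pseudocount shrinks those of low genes. Atf6b turned from −1.28 to 0.25 after junction adjustment, and Eif2ak3 from −0.44 to 0.12. The other 8 of 10 genes kept their sign in every setting tried. Within 1 kb of the start in place of 10 kb of the locus, CEBPB peaks were counted at 2 genes untreated and 3 treated, since the window is smaller, and with the upper-scoring peaks alone at 3 untreated. Methylation under 20% at both locus ends held at 0 genes. The remaining 21 counts stayed within 1.5 times the main count. Low fragment numbers limit Eif2ak4 in treated cells most, and methylation depth is unknown. No paired analysis was possible because each RNA and ChIP group has 1 library.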
